A study of Mus musculus with 8 samples.

Results

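The comparison described here is that of Sox4 knockout with control in the crypt-enriched fraction of the mouse intestinal epithelium, measured as RNA from sorted cells. It rests on the 4 libraries labelled CD44plus out of 8 in the series, 2 of group Sox4cKO_CD44plus and 2 of group control_CD44plus, chosen by their labels alone. All 4 came from male littermates aged 6 weeks, and 50000 cells per library were sorted as positive for the epithelial surface protein CD326 (encoded by Epcam) and for CD44, a surface protein enriched in crypts. Controls carried Sox4 alleles flanked by loxP sites (Sox4fl/fl) and no Cre. Sox4cKO animals, called knockouts here, carried the same alleles with villinCre, a Cre recombinase driven by the promoter of the epithelial gene villin, which per the series' design text acts from an embryonic stage on. Because only the knockout animals carried Cre, effects of Cre itself and of the loss of Sox4 cannot be told apart.

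SOX4 is a transcription factor of the SoxC group, which binds DNA through a high mobility group box. In intestinal crypts, stem cells give rise to absorptive enterocytes and to secretory cells, namely goblet, Paneth, enteroendocrine and tuft cells. Enteroendocrine cells release peptide hormones and serotonin in response to nutrients, and their formation passes through a progenitor that expresses the transcription factor Neurog3, followed by factors such as Neurod1, Pax6 and Rfx6.

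Gene counts came to 12249272 and 6007554 reads in control replicates 1 and 2, and to 7679575 and 13238050 reads in Sox4cKO replicates 1 and 2. Values below follow that order. Levels are CPM, the reads of a gene per 1000000 gene reads of its library after trimmed-mean (TMM) scaling. The floor of 3 reads corresponds to between 0.232 and 0.490 CPM. The surface proteins of the sort had RNA levels that overlapped between the genotypes: Epcam lay at 1189 and 1233 CPM in the controls versus 1255 and 1030.0 CPM in the knockouts, and Cd44 at 213 and 242 against 182 and 283 CPM. The 9 epithelial genes examined, which include the keratins Krt8, Krt18 and Krt19, summed to 6142 and 6071 CPM in the controls versus 6668 and 5804 CPM in the knockouts. Markers of other cells were present as well, and Sox4cKO replicate 2 stood apart in them. The 16 mast cell genes in the tables summed to 1738 and 2969.6 CPM in the controls versus 3444 and 15905 CPM in the knockouts. The 22 T cell and intraepithelial lymphocyte genes summed to 2213 and 3692 against 2508 and 5839.6 CPM.

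Sox4 itself, the deleted gene, was read 1438 and 658 times in the control libraries and 123 and 271 times in the Sox4cKO libraries. This corresponded to 111 and 107 CPM in the controls versus 15.9 and 22.3 CPM in the knockouts. Both Sox4cKO libraries therefore lay well below both controls, and neither was near the 3-read floor. Sox4 fell 5.62-fold (log2 fold change -2.49, SE 0.21, edgeR adjusted p = 0.021). The gene has a single exon on chromosome 13 of GRCm38, at 28948919 to 28953713 in GENCODE. The tables give 1 count per gene, so reads from within and outside the loxP-flanked stretch were not separated.

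Apart from Sox4, 3 genes passed the test, all of them lower in Sox4cKO and all known from cells that secrete peptides or from neurons. Cpe encodes carboxypeptidase E, which trims basic residues from the ends of prohormone fragments. It lay at 58.1 and 72.5 CPM in the controls versus 7.77 and 9.04 CPM in the knockouts, and fell 7.57-fold (log2 fold change -2.92, SE 0.25, edgeR adjusted p = 0.021). Chga encodes chromogranin A, a protein of dense-core secretory granules and the standard marker of enteroendocrine cells. Its level was 549 and 506 CPM in the controls versus 118 and 146 CPM in the knockouts, a 3.98-fold fall (log2 fold change -1.99, SE 0.18, edgeR adjusted p = 0.0222). Map1b encodes a microtubule-associated protein best known from neurons. It lay at 75.9 and 83.6 CPM in the controls versus 20.7 and 15.5 CPM in the knockouts, a 4.47-fold fall (log2 fold change -2.16, SE 0.22, edgeR adjusted p = 0.0368). For each of these genes the lower control library was at least 3 times as high as the higher Sox4cKO library.

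In all, 4 of 17052 genes tested passed an edgeR adjusted p of 0.05 and were lower (0.0235%), and 0 were higher. At an unadjusted p of 0.05, 527 genes were lower (3.09%) and 549 higher (3.22%). Both Sox4cKO libraries lay below both control libraries for 2852 genes (16.7%) and above them for 2716 (15.9%), and the median log2 fold change over all genes tested was -0.01. With 2 libraries per group the number of calls depended strongly on the test and on single libraries. edgeR's older quasi-likelihood method called 17 genes, all lower (0.0997%), DESeq2 called 58 lower (0.34%) and 13 higher (0.0762%), limma-voom called 13, all lower, and a fit of all 8 libraries called 0. Without control replicate 1 or control replicate 2 no gene passed (Sox4 had an edgeR adjusted p of 0.386 and 0.673), whereas 1686 passed without Sox4cKO replicate 1 and 183 without Sox4cKO replicate 2. The 4 genes above were among the calls in each of the settings with more calls. The plot of change against level shows the leading genes among all genes tested.

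**Figure D1:**
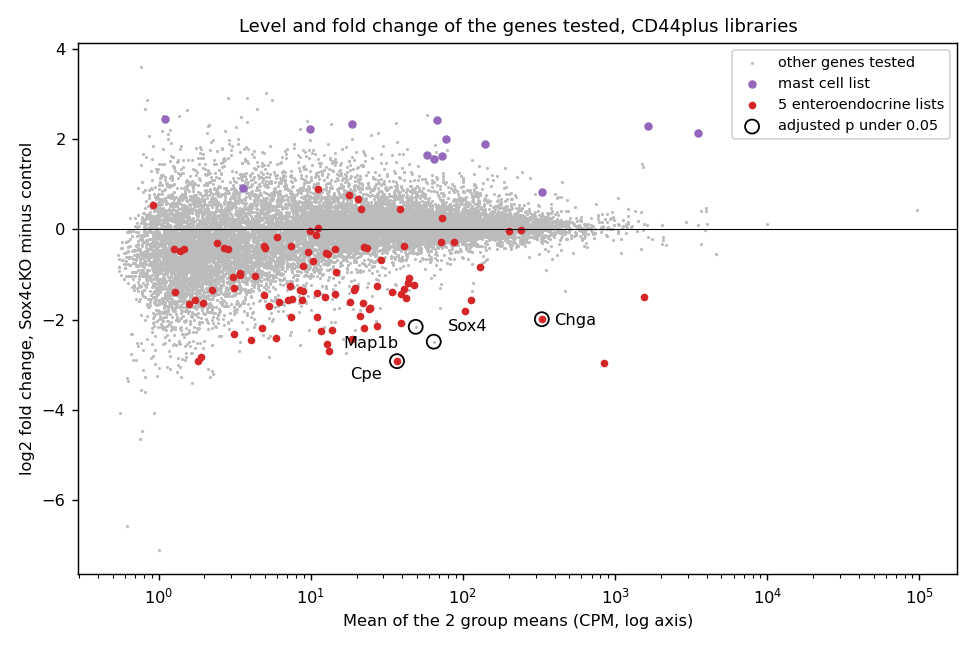
Each point is a gene among the 17052 tested. The horizontal axis gives the mean of the group means in CPM, on a log axis. The vertical axis gives the log2 fold change of Sox4cKO against control in CD44plus cells. The 4 genes that passed the test (Sox4, Cpe, Chga and Map1b) lie at log2 fold changes between -2.92 and -1.99.

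The 250 bases before the annotated start were read from RefSeq (GRCm38.p6) for the genes that led the lower side, to show the letters a reader would look for in a gene tied to SOX4 or to basic helix-loop-helix factors such as NEUROG3 and NEUROD1. They are printed for Chga, for Map1b and for Afp, one of the genes just outside the threshold, because these differ in what they hold. Capitals mark the SOX letters ACAAAG or ACAATG and the E-box letters CAGATG or CAGCTG, searched on both strands, and the sequences run 5′ to 3′ in the direction of the gene.

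Chga (chr12:102554691-102554940, plus strand): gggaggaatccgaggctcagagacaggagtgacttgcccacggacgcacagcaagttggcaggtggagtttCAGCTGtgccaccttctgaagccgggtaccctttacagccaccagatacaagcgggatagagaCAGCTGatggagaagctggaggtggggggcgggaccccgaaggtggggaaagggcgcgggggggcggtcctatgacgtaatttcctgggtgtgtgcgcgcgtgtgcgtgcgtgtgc

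Map1b (chr13:99516603-99516852, minus strand): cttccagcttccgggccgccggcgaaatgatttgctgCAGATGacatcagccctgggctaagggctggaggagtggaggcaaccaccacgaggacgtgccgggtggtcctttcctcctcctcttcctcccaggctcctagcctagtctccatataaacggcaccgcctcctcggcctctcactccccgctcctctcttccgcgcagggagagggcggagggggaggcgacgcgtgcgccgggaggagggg

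Afp (chr5:90490464-90490713, plus strand): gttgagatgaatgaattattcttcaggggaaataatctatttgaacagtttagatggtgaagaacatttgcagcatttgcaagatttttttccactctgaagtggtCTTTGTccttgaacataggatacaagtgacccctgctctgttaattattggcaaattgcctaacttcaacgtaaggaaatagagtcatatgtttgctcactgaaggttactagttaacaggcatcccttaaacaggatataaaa

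Chga holds the E-box letters at 2 positions and Map1b at 1, and Afp holds the SOX letters on the opposite strand. Of the 19 leading lower genes, which are the 4 called and the next 15 by p, 16 had a RefSeq promoter in the table used (not Cpe, Cacna1h or Trpa1), with 18 promoters among them. The SOX letters occurred in 3 of the 18 and in 25.2% of all 32851 promoters of the same length. The E-box letters occurred in 7 of the 18 and in 25.5% of all promoters. A match of 6 letters describes the sequence only, and whether any factor binds there was not measured.

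The next 15 genes by p on the lower side had edgeR adjusted p-values between 0.0576 and 0.072 and so did not pass the threshold. DESeq2, run on the same counts, called all 15, and both Sox4cKO libraries lay below both controls for each. These 15 genes were chosen by small p in the same 4 libraries, so neither point is separate support. Gip, the hormone glucose-dependent insulinotropic polypeptide of K cells, had the highest level among them, at 1051 and 1965 CPM in the controls versus 164 and 222 CPM in the knockouts (log2 fold change -2.96, SE 0.33, edgeR adjusted p = 0.0576). Tac1, the precursor of substance P, lay at 36.4 and 37.2 CPM against 8.55 and 7.81 CPM. Cck, the hormone cholecystokinin, lay at 65.3 and 60.3 against 19.6 and 23.8 CPM. Pcsk1, a protease that cuts prohormones, lay at 35.7 and 30.4 against 8.16 and 9.37 CPM.

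Transcription factors were also in this set. Rfx6 lay at 51.4 and 74.6 CPM in the controls versus 15 and 14.5 CPM in the knockouts, and Pax6 at 27.0 and 36.3 against 5.05 and 6.17 CPM. Both are needed for endocrine cells of the gut and pancreas. The imprinted zinc finger gene Peg3 lay at 48.1 and 40.7 against 11.7 and 9.12 CPM.

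Channel and secretory vesicle genes were also among the 15. Cacna1h, a T-type calcium channel subunit, lay at 29.8 and 24.7 CPM in the controls versus 5.70 and 4.69 CPM in the knockouts. Trpa1, an ion channel opened by irritants and found in enterochromaffin cells, lay at 25.6 and 20.1 against 3.88 and 3.37 CPM. Pclo encodes a scaffold of vesicle release sites and lay at 91.8 and 127 against 35.6 and 29.8 CPM. The dense-core granule protein gene Ptprn2 lay at 150.3 and 186 against 55.9 and 57.1 CPM, and the G protein subunit gene Gnao1 at 44.6 and 40.5 against 13.3 and 8.47 CPM. The set was completed by Sphkap (28.0 and 36.4 against 6.47 and 6.82 CPM), Vwa5b2 (40.0 and 47.9 against 13.3 and 12.5 CPM) and Afp, the fetal plasma protein alpha-fetoprotein (34.2 and 25.2 against 2.85 and 5.75 CPM). In none of these genes was the lower control library less than 2 times as high as the higher Sox4cKO library.

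**Figure D2:**
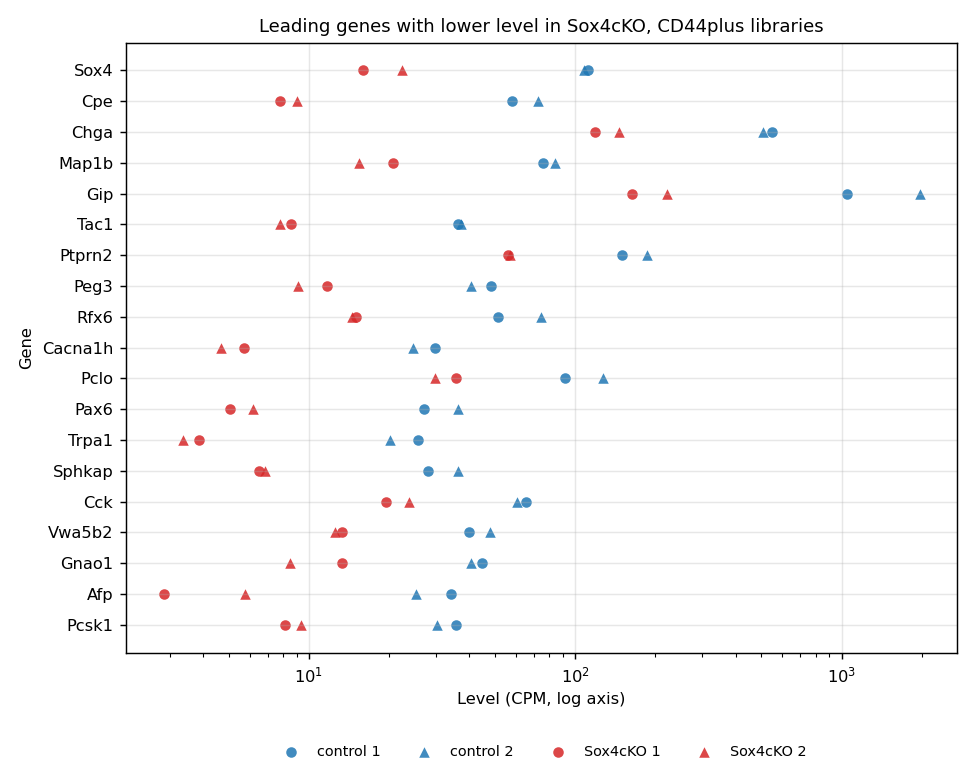
Levels in CPM on a log axis for the 19 leading lower genes, with 1 point per library, for 2 control and 2 Sox4cKO CD44plus libraries. In all 19 genes both Sox4cKO points lie below both control points, from Gip at 1051 and 1965 against 164 and 222 CPM to Trpa1 at 25.6 and 20.1 against 3.88 and 3.37 CPM.

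Enteroendocrine genes were then described by role, over 5 lists with 106 genes in all, of which 96 were tested. The log2 fold change was negative for 88 of them and positive for 8, with a median of -1.34 beside -0.01 over all genes. Both Sox4cKO libraries lay below both controls for 71 (74.0%, beside 16.7% of all genes) and above them for 3 (3.12%, beside 15.9%). Of the 96 genes 2 passed the edgeR test, Cpe and Chga, beside 0.0235% of all genes called lower. DESeq2 called 29, all lower, beside 0.34% of all genes. At an unadjusted edgeR p of 0.05, 53 were lower, beside 3.09% of all genes. The lists were chosen with earlier results of these data known, so these shares are a description and not a test. In summed level the 105 genes in the tables came to 6493 and 7899 CPM in the controls versus 2606 and 2924 CPM in the knockouts. In bulk RNA of sorted cells, fewer enteroendocrine cells and less of these RNAs per cell cannot be told apart.

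The hormone list also holds the serotonin synthesis enzymes Tph1 and Ddc. Of its 13 genes measured, 11 had negative values (median log2 fold change -1.26). The summed level of the 17 in the tables was 1591 and 2647 CPM in the controls versus 423 and 602 CPM in the knockouts. Beside Gip, Cck and Tac1, the genes of 5 other hormones were lower in both Sox4cKO libraries. Sst (somatostatin, of D cells) lay at 102 and 221 CPM in the controls versus 38.1 and 50.6 CPM in the knockouts (log2 fold change -1.82, SE 0.35, edgeR adjusted p = 0.299). Sct (secretin) lay at 58.7 and 75.8 against 24.7 and 31.2 CPM, and Gcg, the proglucagon gene of L cells, at 58.6 and 58.1 against 21 and 25 CPM. Pyy, the other L cell hormone, was low throughout, at 12.4 and 8.17 against 3.88 and 4.93 CPM. Ucn3 (urocortin 3) was lower still, at 4.34 and 1.96 against 0.518 and 0.411 CPM, on 4 and 5 reads in the knockouts. Nts, Insl5, Gal and Vip were too low to be tested.

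Not every gene of the hormone list followed this order. Ghrl (ghrelin) overlapped between the genotypes, at 39.2 and 54.9 CPM in the controls versus 24.9 and 44.6 CPM in the knockouts (log2 fold change -0.37, SE 0.30). Tph1, the enzyme that starts serotonin synthesis in enterochromaffin cells and also a gene of mast cells, lay at 67.0 and 68.1 against 32.6 and 123 CPM. Its log2 fold change was 0.25 (SE 0.48) over the 4 libraries and -1.07 without Sox4cKO replicate 2, the library with 15905 CPM of mast cell genes. Whether mast cell RNA had a part in that value was not tested. Ddc, the next enzyme of serotonin synthesis, lay at 56.7 and 63.5 against 29.4 and 27.0 CPM. Nucb2, which is expressed well beyond endocrine cells, was above both controls, at 34.7 and 30.2 against 52.1 and 38.1 CPM.

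Among the transcription factors, 21 of 22 had negative values, with a median log2 fold change of -1.36. Both Sox4cKO libraries lay below both controls for 77.3%, beside 16.7% of all genes. Neurog3, which marks the endocrine progenitor, lay at 10.2 and 9.96 CPM in the controls versus 8.42 and 10.9 CPM in the knockouts, so the groups overlapped (log2 fold change -0.04, SE 0.33). Its depth was 61 to 132 reads per library. Factors known to act after Neurog3 were lower in both Sox4cKO libraries. Neurod1 lay at 27.4 and 27.8 against 11.1 and 10.7 CPM (log2 fold change -1.34, SE 0.25, edgeR adjusted p = 0.267). Insm1, a zinc finger repressor of endocrine cells, lay at 33.8 and 43.3 against 14.0 and 17.3 CPM. The homeobox genes Nkx2-2 and Isl1 lay at 24.1 and 30.9 against 8.80 and 8.71 CPM and at 16.4 and 20.6 against 5.44 and 6.99 CPM. Whether these factors differed more than Neurog3 was not tested.

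Among factors tied to single endocrine lineages the pattern was mixed. Pax4 was at 3.18 and 3.27 CPM in the controls versus 1.29 and 1.23 CPM in the knockouts, on 10 to 41 reads per library. Lmx1a and Fev, both known from enterochromaffin or other serotonin-producing cells, were at 11.6 and 7.84 against 3.11 and 1.15 CPM and at 8.99 and 9.80 against 2.85 and 3.12 CPM. Hhex, a factor of somatostatin cells, went the other way with overlapping groups, at 7.21 and 9.31 against 7.25 and 20.6 CPM (log2 fold change 0.90, SE 0.50). Mnx1 and Neurod2 overlapped between the genotypes as well. Myt1 and St18 are zinc finger genes of one family. Myt1 was read 434 and 262 times in control and 81 and 142 times in Sox4cKO (log2 fold change -1.75, SE 0.25, edgeR adjusted p = 0.103), and St18 was at 28.3 and 38.2 against 12.3 and 8.96 CPM.

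Granins and the enzymes that process prohormones had the most negative median of the 5 lists, at -1.56, with 16 of 17 genes negative. edgeR called 2 of them, Cpe and Chga, both lower, beside 0.0235% of all genes. The list summed to 3393 and 3598 CPM in the controls versus 1229 and 1447 CPM in the knockouts. Chgb (chromogranin B) made up most of this, at 2171 and 2387 CPM in the controls versus 707 and 910.4 CPM in the knockouts (log2 fold change -1.49, SE 0.21, edgeR adjusted p = 0.0988). Pam, the enzyme that amidates peptide hormones, lay at 59.6 and 55.7 against 19.3 and 23.0 CPM. The secretogranin genes Scg2 and Scg3 lay at 32.3 and 43.0 against 11.4 and 10.4 CPM and at 19.4 and 25.6 against 6.47 and 3.45 CPM.

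Genes of excitability and exocytosis had 28 of 29 negative values and a median of -1.01. Both Sox4cKO libraries lay below both controls for 82.8%, beside 16.7% of all genes. Scn3a, a voltage-gated sodium channel, lay at 20.4 and 23.2 CPM in the controls versus 5.31 and 2.55 CPM in the knockouts. Rab3c, a small GTPase of secretory vesicles, lay at 22.4 and 15.2 against 6.09 and 2.71 CPM. Abcc8, the sulfonylurea receptor of the ATP-sensitive potassium channel, lay at 34.4 and 39.9 against 16.3 and 6.91 CPM. These genes were low in both Sox4cKO libraries but differed between them, replicate 2 being the lower in each. Cplx2, a regulator of vesicle fusion, and the vesicle release gene Rimbp2 had the opposite order of the knockout libraries, at 47.9 and 52.1 against 15.1 and 21.9 CPM and at 51.2 and 70.7 against 19.4 and 31.6 CPM.

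Receptors by which enteroendocrine cells sense nutrients and other signals were less uniform. Of 15 measured, 12 had negative values, with a median of -1.31 that came to -0.19 without Sox4cKO replicate 2 and to -2.12 without Sox4cKO replicate 1. Gfra3, a receptor of the neurotrophic factor artemin, lay at 18.8 and 24.2 CPM in the controls versus 5.83 and 9.04 CPM in the knockouts. The cannabinoid receptor gene Cnr1 lay at 11.6 and 11.6 against 4.53 and 1.97 CPM. The lipid receptor gene Gpr119 lay at 1.70 and 1.80 against 1.55 and 0.0822 CPM, the last being 1 read and so below the floor. The calcium-sensing receptor gene Casr lay at 4.49 and 3.92 against 3.50 and 0.575 CPM, the last being 7 reads. With 1 library left out in turn, the median ranged from -1.50 to -1.14 for the hormone list. It ranged from -1.55 to -1.33 for the transcription factors and from -1.70 to -1.48 for the granins. For excitability and exocytosis it ranged from -1.28 to -0.68, the last value being that without control replicate 2.

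**Figure D3:**
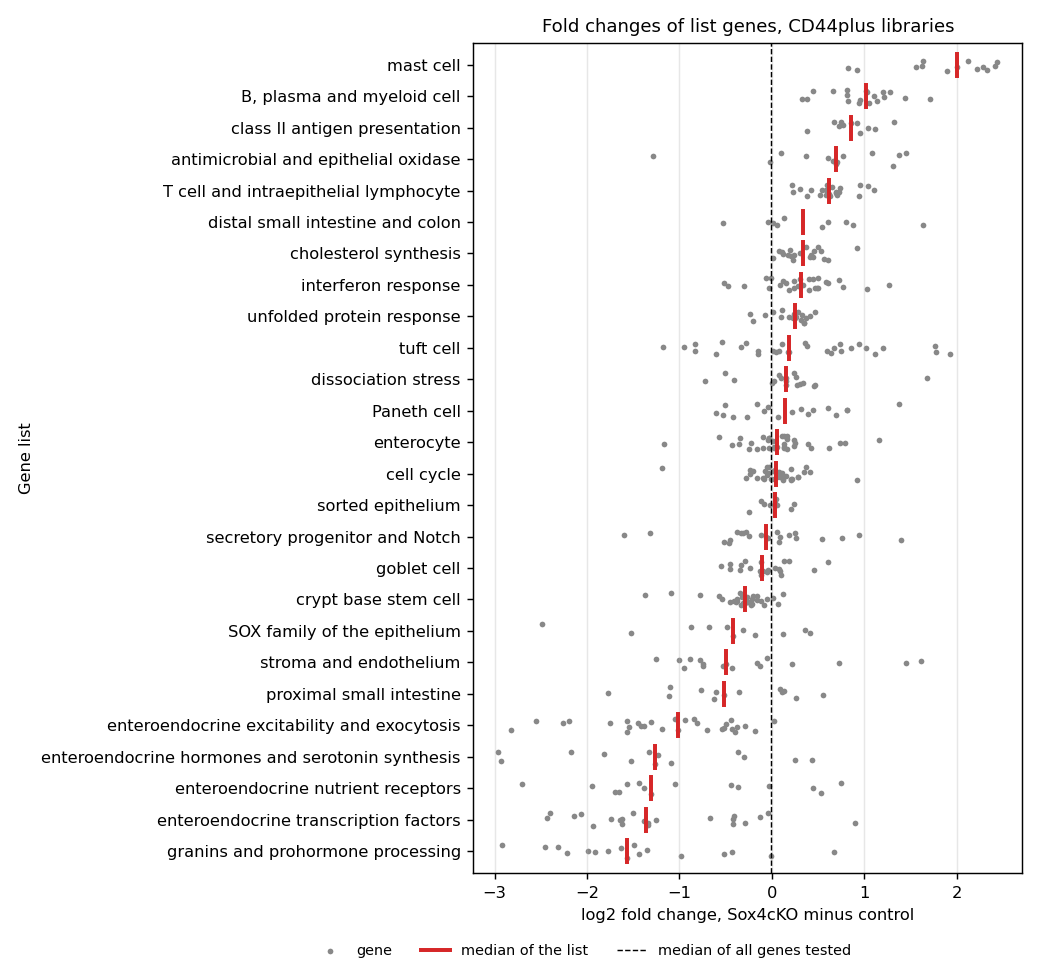
Median log2 fold change of each gene list, Sox4cKO against control in CD44plus cells, beside the median of all genes tested (-0.01). The 5 enteroendocrine lists lie between -1.56 and -1.01, and the mast cell list lies at the other end with 2.00.

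Genes of tuft cells, which sense luminal chemicals, gave no common direction: 10 of 31 genes were negative and 21 positive, with a median of 0.19. Il25, Gnat3 and Sucnr1, key genes of tuft cell signalling, were too low to be tested. Dclk1, a widely used tuft cell marker, was lower in both Sox4cKO libraries, at 26.0 and 38.7 CPM in the controls versus 21.9 and 14.3 CPM in the knockouts (log2 fold change -0.83, SE 0.31, edgeR adjusted p = 0.774). Trpm5, the cation channel of tuft cell taste signalling, lay at 29.4 and 28.6 against 36.0 and 30.7 CPM. Plcb2 and Alox5, which blood cells also express, had higher values. Plcb2 lay at 30.8 and 47.7 against 58.7 and 114 CPM, and Alox5, the leukotriene-forming lipoxygenase, at 11.2 and 22.5 against 21.5 and 92.6 CPM. Both were highest in Sox4cKO replicate 2, as the mast cell genes were, and the median of the list was 0.02 without that library, 0.00 without control replicate 1, 0.44 without control replicate 2 and 0.42 with a minimum count of 50. The part of mast cell RNA in these values was not tested.

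Genes of crypt base stem cells were lower in most cases, with 26 of 29 negative, a median of -0.29 and both Sox4cKO libraries below both controls for 20 (69.0%, beside 16.7% of all genes). None passed the edgeR test, whereas DESeq2 called 2, Lgr5 and Slc14a1, both lower, beside 0.34% of all genes. Lgr5, the receptor that marks these cells, lay at 79.1 and 89.2 CPM in the controls versus 36.8 and 41.4 CPM in the knockouts (log2 fold change -1.09, SE 0.18, edgeR adjusted p = 0.187). Slc14a1, a urea transporter, lay at 48.7 and 53.6 against 17.9 and 21.0 CPM (log2 fold change -1.37, SE 0.21, edgeR adjusted p = 0.116). Other stem cell genes differed less. Olfm4, the most abundant of those named here, lay at 3764 and 4366 against 3373 and 3082 CPM, Smoc2 at 247 and 224 against 186 and 169 CPM, and the Wnt target Axin2 at 424 and 437 against 317 and 343 CPM. The median was between -0.34 and -0.26 with each library left out in turn.

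Cell cycle genes showed no common direction, with 14 of 34 negative and a median of 0.05. The proliferation marker Mki67 lay at 2083 and 2393 CPM in the controls versus 1662 and 2136 CPM in the knockouts, and the replication clamp Pcna at 55.6 and 60.6 against 75.5 and 77.8 CPM. Cdkn1c, an inhibitor of cyclin-dependent kinases, was read 136 and 97 times in control and 37 and 73 times in Sox4cKO (log2 fold change -1.18, SE 0.39, edgeR adjusted p = 0.764).

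Genes of secretory progenitors and of Notch signalling had a median of -0.06, with 13 of 23 negative. Atoh1, the factor needed for secretory cells, overlapped between the genotypes at 22.5 and 31.2 CPM in the controls versus 29.3 and 19.8 CPM in the knockouts (log2 fold change -0.12, SE 0.28). The Notch ligands Dll1 and Dll4 lay at 126 and 131 against 97.2 and 106 CPM and at 65.4 and 55.2 against 48.0 and 40.9 CPM. Spdef, a factor of goblet and Paneth cells, lay at 61.4 and 60.4 against 41.7 and 47.1 CPM, whereas Gfi1 lay at 16.1 and 29.9 against 29.9 and 41.9 CPM. Mex3a, an RNA-binding protein of crypt cells, had the most negative value of those named, at 21.4 and 19.1 against 5.05 and 10.4 CPM (log2 fold change -1.32, SE 0.35, edgeR adjusted p = 0.644).

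Goblet cell genes had 14 of 22 negative values and a median of -0.11, with Muc2, the main secreted mucin, at 2059 and 2497 CPM in the controls versus 1859.7 and 1746 CPM in the knockouts. Paneth cell genes had 8 of 18 negative and a median of 0.14. Enterocyte genes had 14 of 35 negative and a median of 0.06, and Vil1, whose promoter drives the Cre, lay at 532 and 473 against 655 and 538 CPM. Of the SOX family, 8 of 11 genes including Sox4 were negative. Sox9, a factor of stem and Paneth cells, lay at 364 and 369 against 296 and 293 CPM, and Sox6 at 45.3 and 54.2 against 32.4 and 29.3 CPM. Neither passed the edgeR test. The median of the goblet cell genes turned positive (0.02 without Sox4cKO replicate 2, 0.07 without control replicate 2), and that of the enterocyte genes negative (-0.17 without Sox4cKO replicate 1, -0.08 without control replicate 2).

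**Figure D4:**
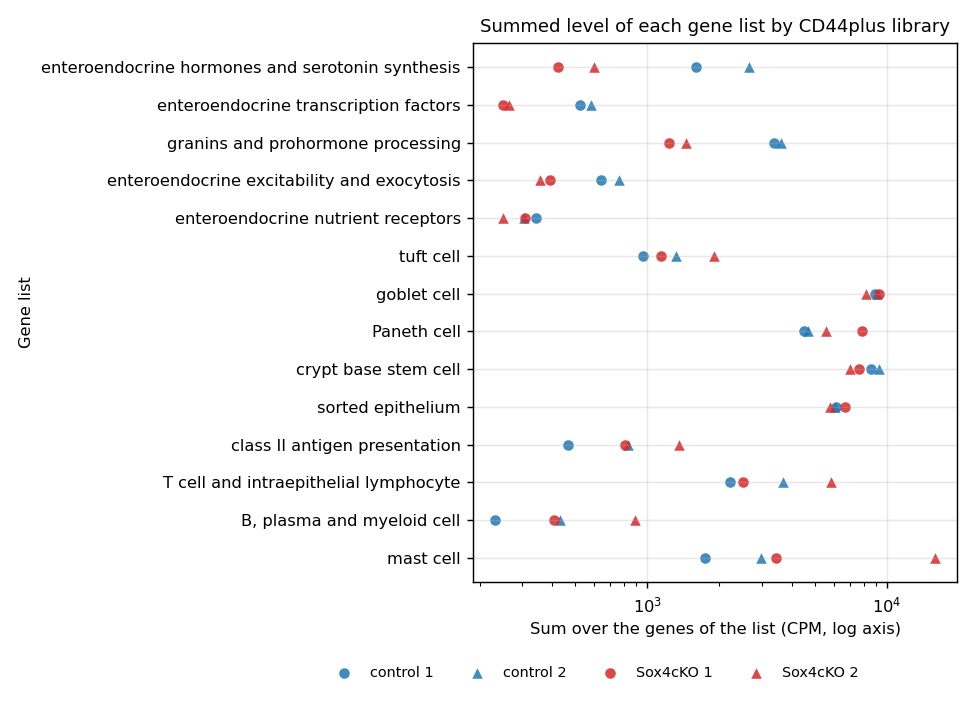
Summed level in CPM, on a log axis, of the gene lists in each of the 4 CD44plus libraries. The hormone list lies at 1591 and 2647 CPM in the controls versus 423 and 602 CPM in the knockouts, while the mast cell list reaches 15905 CPM in Sox4cKO replicate 2 against 1738 to 3444 CPM in the other libraries.

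On the higher side no gene passed the edgeR test, while DESeq2 called 13. The 15 genes of smallest p had edgeR adjusted p-values between 0.117 and 0.505, and for each of them both Sox4cKO libraries lay above both controls. DESeq2 called 7 of the 15: B3galt5, Pnp2, Il1rn, Pfkp, Il1b, Emilin2 and Il4ra. B3galt5, a galactosyltransferase, led them at 9.84 and 12.6 CPM in the controls versus 34.6 and 33.2 CPM in the knockouts (log2 fold change 1.64, SE 0.25, edgeR adjusted p = 0.117). Pnp2, a purine nucleoside phosphorylase, was read 17 and 4 times in control and 80 and 97 times in Sox4cKO, or 1.32 and 0.653 against 10.4 and 7.97 CPM. It is uncertain, because Pnp is a near-identical neighbour and ambiguous alignments were left out of the counts.

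Of the 15 genes, 2 are known from glycolysis and 4 from cytokine signalling, a grouping that was not tested. Since both Sox4cKO libraries lay above both controls for all 15, the highest library could only be 1 of these 2. It was Sox4cKO replicate 2, the library high in mast cell genes, for 8 of the 15, close to an even split. The 4 cytokine signalling genes were among these 8, and the part of mast or other blood cell RNA was not tested. Pfkp, a phosphofructokinase, lay at 117 and 117 CPM in the controls versus 204 and 200.4 CPM in the knockouts, and Pfkfb3, which makes the activator of that step, at 29.5 and 33.0 against 53.2 and 65.4 CPM. Il1b, a cytokine of myeloid cells, lay at 16.9 and 22.5 against 38.7 and 67.2 CPM, and Il1rn, the antagonist of its receptor, at 7.21 and 5.88 against 19.6 and 20.6 CPM. Socs3, a feedback inhibitor of cytokine signalling, lay at 37.2 and 30.1 against 59.2 and 64.4 CPM. Il4ra, a receptor chain for interleukins 4 and 13, lay at 35.3 and 55.4 against 76.7 and 128 CPM. With 1 library left out in turn, the log2 fold change ranged from 1.00 to 1.82 for Il1b and from 0.79 to 1.55 for Il4ra.

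Epithelial and other genes made up the rest. The apolipoprotein gene Apoa4, of enterocytes, lay at 131 and 148 CPM in the controls versus 269.7 and 212 CPM in the knockouts, and the metallothionein gene Mt1 at 163 and 163 against 269 and 249 CPM. Lgals3, a galectin, lay at 10.8 and 13.9 against 26.3 and 27.4 CPM, and the unconventional myosin gene Myo7a at 43.9 and 43.4 against 84.8 and 73.4 CPM. Pla2g2a, known as a secreted phospholipase of Paneth cells, lay at 26.4 and 24.0 against 45.6 and 44.1 CPM. The RefSeq annotation used here lists it as a transcribed pseudogene, so its RNA need not give a working enzyme. Trim30d, one of a family of close copies and so uncertain, lay at 11.8 and 17.1 against 28.6 and 34.7 CPM. Emilin2, an extracellular matrix glycoprotein, lay at 13.2 and 11.1 against 26.8 and 94.5 CPM, so that its difference came mainly from Sox4cKO replicate 2, the library high in mast cell genes.

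**Figure D5:**
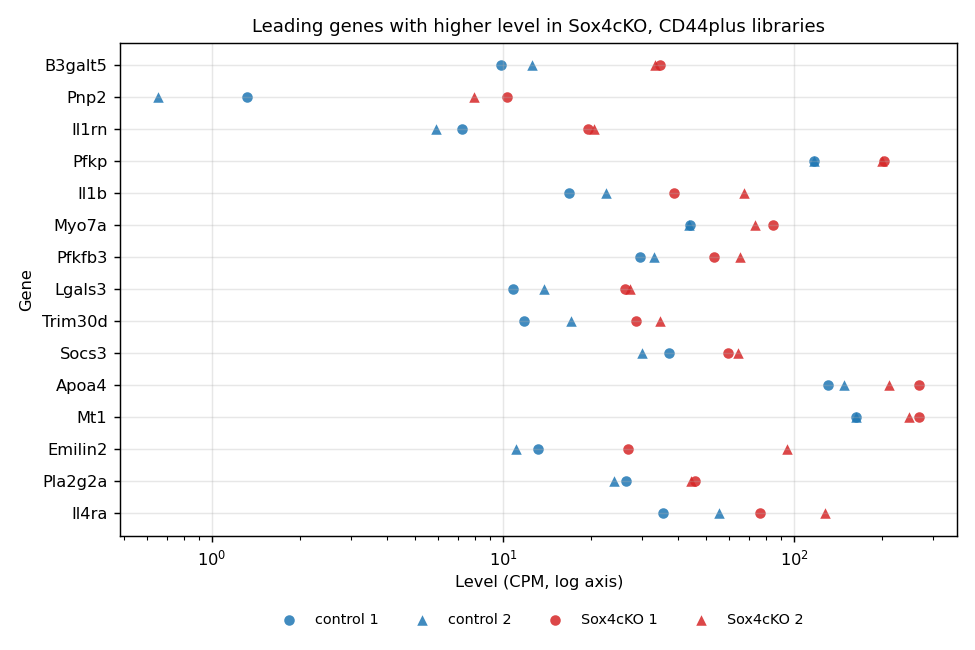
Levels in CPM on a log axis for the 15 leading higher genes, with 1 point per library, for 2 control and 2 Sox4cKO CD44plus libraries. In all 15 genes both Sox4cKO points lie above both control points, and none passed the edgeR test, B3galt5 having the smallest adjusted p (0.117).

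Antimicrobial and epithelial oxidase genes were higher in most cases, with 11 of 13 positive and a median log2 fold change of 0.69. Both Sox4cKO libraries lay above both controls for 6 of the 13 (46.2%, beside 15.9% of all genes). The median was 0.28 without Sox4cKO replicate 1 and 1.01 without Sox4cKO replicate 2. edgeR called none of these genes. DESeq2 called 2, Reg3g higher (beside 0.0762% of all genes) and Reg4 lower (beside 0.34%). Reg3b and Reg3g, secreted lectins that act on bacteria, lay at 566 and 1056 CPM in the controls versus 2967 and 1446 CPM in the knockouts and at 588 and 1110.3 against 2865 and 1549.8 CPM. They are close copies and so uncertain, and Sox4cKO replicate 1 was the highest library for both. Duox2, the epithelial hydrogen peroxide-forming oxidase, lay at 80.3 and 124 against 277 and 151 CPM, and Itln1, an intestinal lectin, at 848 and 739 against 1419 and 1145 CPM. Reg4 went the other way, at 103 and 95.5 against 51.8 and 31.3 CPM (log2 fold change -1.29, SE 0.24, edgeR adjusted p = 0.278). Reg4 is known from enteroendocrine and other secretory cells.

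Sox4cKO replicate 2 was the highest library for 13 of 13 mast cell genes tested, 22 of 22 T cell and intraepithelial lymphocyte genes and 17 of 19 B, plasma and myeloid cell genes. All 13 mast cell genes were positive, with a median of 2.00 that was 0.48 without that library. Both Sox4cKO libraries lay above both controls for 8 of the 13 (61.5%, beside 15.9% of all genes). Mcpt1, a mucosal mast cell protease and one of a family of close copies, lay at 949 and 1689.6 CPM in the controls versus 1986 and 9468 CPM in the knockouts. Ms4a2, a chain of the IgE receptor, lay at 27.8 and 35.8 against 47.1 and 197 CPM, and Cpa3, a mast cell carboxypeptidase, at 41.2 and 83.1 against 84.2 and 354 CPM. For T cells and intraepithelial lymphocytes the list had 22 of 22 positive values and a median of 0.62, which was -0.14 without Sox4cKO replicate 2 and 0.28 without control replicate 1. In that list Cd3e, a chain of the T cell receptor complex, lay at 123 and 158 against 121 and 239.7 CPM, and Ptprc (CD45) at 249 and 398 against 310.1 and 734 CPM. Itgae, the integrin by which lymphocytes hold to epithelium, lay at 240.2 and 354 against 304 and 906 CPM. B, plasma and myeloid cell genes had 19 of 19 positive and a median of 1.02, or 0.43 without Sox4cKO replicate 2 and 0.28 without control replicate 1. The 20 such genes in the tables summed to 233 and 434 CPM in the controls versus 408 and 887 CPM in the knockouts, with the integrin gene Itgax, of dendritic cells and some lymphocytes, at 77.3 and 113 against 104 and 324 CPM. Class II antigen presentation genes had 11 of 11 positive and a median of 0.86, or 0.32 without Sox4cKO replicate 2 and 0.38 without control replicate 1. Both Sox4cKO libraries lay above both controls for 5 of these 11 (45.5%, beside 15.9% of all genes). The same held for 4 of the 19 B, plasma and myeloid cell genes (21.1%). It held for 2 of the 22 T cell and intraepithelial lymphocyte genes (9.09%). In these 4 lists edgeR called 0 genes. DESeq2 called 1 higher, the mast cell protease gene Mcpt4, beside 0.0762% of all genes.

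Stroma and endothelium genes had 13 of 17 negative values and a median of -0.50, which was 0.25 without Sox4cKO replicate 2, 0.02 without control replicate 1 and 0.40 with a minimum count of 50. Dissociation stress genes had a median of 0.16, or -0.10 without Sox4cKO replicate 2. Cholesterol synthesis genes were positive in 20 of 20, with a median of 0.33 and both Sox4cKO libraries above both controls for 12 of them, and unfolded protein response genes in 17 of 20, with a median of 0.25 and 13 of 20 above, each beside 15.9% of all genes. Interferon response genes were positive in 22 of 28, with a median of 0.32. Both Sox4cKO libraries lay above both controls for 11 of the 28 (39.3%, beside 15.9% of all genes). None of the genes in these 5 lists was called by edgeR or DESeq2.

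Genes that differ along the length of the gut were examined because a difference in the region sampled would move them. Genes of the proximal small intestine had 8 of 13 negative and a median of -0.52, and those of the distal small intestine and colon had 8 of 10 positive and a median of 0.34. edgeR called no gene of either list, and DESeq2 called 1 higher, B3galt5 of the distal list, beside 0.0762% of all genes. Pdx1, a duodenal transcription factor, lay at 13.6 and 8.17 CPM in the controls versus 5.44 and 5.26 CPM in the knockouts. S100g, the calcium-binding protein calbindin-D9k, lay at 41.0 and 16.7 against 7.77 and 9.95 CPM, with the controls themselves well apart. Fabp6, the ileal bile acid-binding protein, lay at 14.7 and 23.5 against 30.7 and 35.8 CPM. The proximal median was 0.00 without Sox4cKO replicate 2 and -0.05 without control replicate 1, and the distal median was 0.015 without Sox4cKO replicate 1. Gip, Cck and Sct are themselves more abundant in the proximal gut, and the part of region in their values was not tested.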

How the data were processed

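RNA of sorted CD44plus cells was sequenced in 4 libraries, 2 per genotype. The deposited tables hold the authors' raw read counts per gene symbol, 23366 symbols in each, with the counter's summary lines, which were removed. Total RNA went into a stranded kit for very low input, per the labels' protocols. Tools listed in the submitters' processing notes are HTSeq 0.6.1p1, STAR 2.2.5b, Trimmomatic 0.36 and bcl2fastq 2.17.4, with the build mm10. Settings, including the strand option of the counting, are not given in the sources used here, so genes that overlap another gene are uncertain, as are families of close copies, because ambiguous alignments were left out of the counts. Of uniquely placed reads, 77.8 and 74.5% in control and 79.3 and 64.6% in Sox4cKO were counted to no gene. Rn45s, the ribosomal RNA precursor, made up 7.95% to 12.7% of gene reads.

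The count tables were read into edgeR 4.0.16 (R 4.3.3). The steps were filterByExpr with a minimum count of 10 (17052 genes kept), TMM scaling (factors 1.06 and 1.02 in control, 1.01 and 0.920 in Sox4cKO), and the quasi-likelihood test of genotype with Benjamini-Hochberg adjustment and a threshold of 0.05. The test was run with legacy set to FALSE, which is not the default of this edgeR version. Both counts, 4 genes and 17 with legacy set to TRUE, were known when this was settled. It was settled so because the older method had been listed as the alternative. SE was derived from the quasi-likelihood test, as the absolute log2 fold change divided by the square root of the F statistic. The biological coefficient of variation was 0.335. DESeq2 1.42.0 and limma 3.58.1 served as alternatives, together with other scalings, filters and libraries left out. The procedure was run on simulated data at the spread of these data and at a lower spread. A pass condition was set only for the lower spread, so passing it does not show how the test performs on these data.

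Named genes were Sox4, the genes called, the next 15 by p in each direction, key members fixed per list and up to 3 further members of smallest p per list. From these, the text gives those that carry each description. The members and the lists were chosen with earlier results of these data known, so no list was tested as a set. The series' design text calls the 2 animals per genotype biological replicates. Replicates differed by 10.0 times the Poisson variance in control and by 34.2 times in Sox4cKO. The 3-read floor covers counting error only, since reads carry no molecular identifiers.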

Additional observations from a re-analysis of the deposited data

How the results depend on the processing

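The number of genes called moved more than any single value. Against 4 genes, 4 were called with DESeq2's size factors and 5 without a filter, but 31 with upper-quartile scaling, 25 with a minimum count of 50, 17 with edgeR's older quasi-likelihood method and 13 with limma-voom, all of them lower. DESeq2 called 71, of which 58 were lower and 13 higher. The fit of all 8 libraries called 0, with 91 lower and 37 higher at an unadjusted p of 0.05, and gave Sox4 a log2 fold change of -2.51 with an edgeR adjusted p of 1. Calls ranged from 0 to 1686 with 1 library left out (0 to 564 lower, 0 to 1122 higher). There the lone library of a genotype is assumed to vary like the other group. No gene was called without control replicate 1 (243 at an unadjusted p of 0.05) or without control replicate 2 (549). Sox4 lay between -2.80 and -2.28 across these fits.

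With the replicate number as a block, 274 genes were called, 116 lower and 158 higher. Same-numbered libraries deviated together across genes at a correlation of 0.333, but the labels do not tie the numbers across genotypes, and with 2 pairs this is a hint at most. Enteroendocrine genes made up 2 of the 4 calls, 11 of 17 with the older edgeR method, 9 of 13 with limma-voom, 19 of 31 with upper-quartile scaling, 16 of 25 with the stricter filter, and 29 of the 58 lower and 0 of the 13 higher with DESeq2. With the block they made up 38 of 116 lower and 0 of 158 higher calls, without Sox4cKO replicate 1 48 of 564 and 4 of 1122, and without Sox4cKO replicate 2 34 of 121 and 0 of 62. They are 96 of the 17052 genes tested in the main fit, and other filters and left-out libraries changed the number tested. The lists were chosen with earlier results of these data known, so these shares are a description and not a test.

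Of 104 genes followed across the settings, signs turned for 7, and the cause was not tested. Some genes named above, such as Hhex and Neurod2, were not among the 104. Tph1 was -0.013 with limma-voom and -0.021 with the block. Cd44 was -0.036 with upper-quartile scaling, -0.014 with a minimum count of 50 and -0.000415 with the block. With 1 library left out in turn, Tph1 ranged from -1.07 to 0.88, Neurog3 from -0.29 to 0.11, Atoh1 from -0.39 to 0.15, Ptprc from -0.066 to 1.20, Cd3e from -0.22 to 0.79, Epcam from -0.22 to 0.035 and Cd44 from -0.34 to 0.33. Depth limits the genes under about 5 CPM, such as Pax4 and Gpr119.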
